A study of Mus musculus with 70 samples.

Results

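Long-range chromatin interactions that had no peak of the insulator protein CTCF at either end were examined across mouse fetal tissues. Interactions were measured by H3K4me3 PLAC-seq, in which chromatin is crosslinked, cut and religated in the nucleus, and ligation products carrying the promoter mark H3K4me3 are pulled down and sequenced. A called interaction is a pair of 10-kb bins, 20 kb to 1000 kb apart, whose read count passed the study's threshold against an expected count. An interaction was taken as a no-CTCF interaction when neither of its bins held the midpoint of a CTCF peak of the same tissue and stage. By this rule 107910 of 630484 calls, summed over 11 tissue-stages, had no CTCF, 340643 had CTCF at 1 end and 181931 had CTCF at both ends. The no-CTCF calls fell on 61182 of 232717 distinct bin pairs. The members were thus chosen by measured CTCF peaks, so their CTCF and its motif are given below as a description only. The tests on interactions concern properties that the rule did not use, though TSS and gene content go with where CTCF peaks lie. The gene comparisons count members of the class, so their outcome also moves with the CTCF peaks that define it.

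The tissues came from C57BL/6N fetuses with no genetic alteration or treatment. At embryonic day 12.5 (E12.5) the neural tissues were neural tube (NT), hindbrain (HB), midbrain (MB) and forebrain (FB), and the others were liver (LV), limb (LM) and the craniofacial prominence (CF). Forebrain was also sampled at 4 later stages, E13.5 to E16.5. Forebrain at birth (P0) lies outside the rule and is given only where named. Each tissue-stage had 2 PLAC-seq libraries and at least 1 CTCF ChIP-seq library. All samples were whole tissue, so an interaction present in fewer cells and a weaker interaction in every cell cannot be told apart.

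CTCF binds a long DNA motif and halts the cohesin complex as it extrudes chromatin loops, so that paired CTCF sites often anchor loops and domain borders. Promoters can also meet distal elements through transcription factors, coactivators and Polycomb proteins, and such contacts need no CTCF at the contact itself. Developmental regulator genes in neural and limb tissue are known for many distant enhancers spread over gene-poor intervals.

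The call sets held 21945 interactions in LV E12.5 to 71456 in NT E12.5 after the authors pooled replicates and downsampled them, and single libraries held 11396 to 36794. LV E12.5 stood apart with the fewest calls and the shortest distances, and FB E15.5 with the weakest CTCF peak list, whose median fold enrichment was 6.59 against 8.18 to 10.6 in the other 10 lists. The differences between interaction classes were therefore also computed without each tissue-stage. The gene comparisons were rerun without each single library, and the neural one also without LV. The late forebrain comparison was not rerun without FB E15.5 as a whole. At the transcription start sites (TSSs) of 5 forebrain marker genes 417 interactions were called in FB E12.5 and 31 in LV E12.5. Of 7 liver markers, 4 had an interaction in LV E12.5, with 5 in all, while Hnf4a and Alb had none. The remaining marker, Gata1, was not among the autosomal genes counted.

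The DNA at the ends is shown first for the interactions that were most constant. Of 3008 bin pairs called in all 11 tissue-stages, 15 had no CTCF in each of them and 1197 had CTCF at both ends in each. A CTCF motif of 19 bases was built from 2000 strong FB E12.5 peaks. The match threshold was set so that 75% of these same peak centres held a match. By this threshold 0.5% of windows 300 bases away held one. The most frequent bases of the motif are given below, with the best-scoring stretch of each end of 3 strong constant no-CTCF pairs. A strong constant pair with CTCF and a motif match at both ends is also shown. Capitals mark the 19 bases aligned to the motif, and 10 bases on either side are in lower case (GRCm38, 5′ to 3′ on the strand given).
CTCF motif, most frequent bases: TGGCCACCAGGGGGCGCCA
No-CTCF Foxf2 pair, left end, chr13:31076751-31076789, minus strand: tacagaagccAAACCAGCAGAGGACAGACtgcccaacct
No-CTCF Foxf2 pair, right end, chr13:31627157-31627195, minus strand: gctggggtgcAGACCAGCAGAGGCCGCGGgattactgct
No-CTCF Cdkn1c pair, left end, chr7:143160255-143160293, minus strand: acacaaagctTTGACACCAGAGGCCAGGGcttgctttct
No-CTCF Cdkn1c pair, right end, chr7:143450189-143450227, minus strand: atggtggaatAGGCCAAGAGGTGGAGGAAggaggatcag
No-CTCF Fam120b pair, left end, chr17:15077100-15077138, minus strand: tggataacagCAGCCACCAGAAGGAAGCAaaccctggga
No-CTCF Fam120b pair, right end, chr17:15398750-15398788, plus strand: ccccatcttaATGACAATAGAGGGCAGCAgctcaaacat
CTCF at both ends, left end, chr10:21465506-21465544, plus strand: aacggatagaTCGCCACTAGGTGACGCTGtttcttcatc
CTCF at both ends, right end, chr10:21995407-21995445, minus strand: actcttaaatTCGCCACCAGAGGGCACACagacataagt

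With a match threshold of 14.9 bits, the 6 no-CTCF ends scored 6.28 to 14 bits and the pair with CTCF scored 17.0 and 21.9 bits. Over the genome, 5.85% ± 0.47 (SD, n = 11) of bins at the ends of no-CTCF interactions held a match, against 52.3% ± 2.57 of bins at the ends of interactions with CTCF at both ends. Among all bins 11.3% held one, and among bins without a peak 4.09% ± 0.24.

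Promoters of genes named in this report are shown next, picked because they differed widely in CG content. They do not give the CG range of promoters with many no-CTCF interactions. Gpr85 had few, with 3 to 6 in each E15.5 and E16.5 forebrain library. The sequences run from 250 bases before to 50 bases after a TSS (RefSeq, GRCm38.p6, 5′ to 3′ on the gene's strand), with each CG dinucleotide in capitals.
Lhx2, chr2:38339031-38339330, plus strand: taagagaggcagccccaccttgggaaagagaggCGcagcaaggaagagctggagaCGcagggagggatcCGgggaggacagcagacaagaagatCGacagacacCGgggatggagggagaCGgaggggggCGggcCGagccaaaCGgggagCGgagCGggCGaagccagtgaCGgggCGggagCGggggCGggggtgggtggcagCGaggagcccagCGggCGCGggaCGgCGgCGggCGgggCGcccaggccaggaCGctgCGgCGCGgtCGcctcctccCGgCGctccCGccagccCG
Foxf2, chr13:31625566-31625865, plus strand: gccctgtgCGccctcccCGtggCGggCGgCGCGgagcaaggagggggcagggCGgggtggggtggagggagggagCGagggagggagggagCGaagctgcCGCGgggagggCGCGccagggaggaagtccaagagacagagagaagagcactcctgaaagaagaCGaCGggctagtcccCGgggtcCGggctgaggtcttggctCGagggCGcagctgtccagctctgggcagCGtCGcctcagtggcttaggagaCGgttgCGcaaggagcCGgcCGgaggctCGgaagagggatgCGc
Slc17a6, chr7:51621580-51621879, plus strand: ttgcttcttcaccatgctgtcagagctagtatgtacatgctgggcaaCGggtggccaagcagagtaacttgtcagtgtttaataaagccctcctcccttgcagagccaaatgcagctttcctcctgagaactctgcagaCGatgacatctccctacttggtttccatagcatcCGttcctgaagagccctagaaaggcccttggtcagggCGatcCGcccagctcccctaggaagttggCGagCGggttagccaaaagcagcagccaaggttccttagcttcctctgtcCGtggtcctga
Gpr85, chr6:13839893-13840192, minus strand: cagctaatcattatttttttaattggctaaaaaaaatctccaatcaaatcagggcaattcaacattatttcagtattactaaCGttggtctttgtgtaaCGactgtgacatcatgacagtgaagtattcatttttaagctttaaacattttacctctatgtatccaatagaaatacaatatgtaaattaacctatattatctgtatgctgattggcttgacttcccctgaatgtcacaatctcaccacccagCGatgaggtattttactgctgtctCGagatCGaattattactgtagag

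The Lhx2 promoter shown held 34 CG, the Foxf2 promoter 27, the Slc17a6 promoter shown 8 and the Gpr85 promoter 5, against a median of 7 over 31396 mouse promoters of the same length. None of the 4 held a match to the CTCF motif on either strand, as 1.94% of all promoters did. The bins of the 3 promoters shown of Lhx2, Foxf2 and Gpr85 had no CTCF peak in any of the 11 lists, and that of Slc17a6 had one in 1 list. RefSeq gives a second promoter for Lhx2, with 29 CG and a CTCF peak in its bin in 3 lists, and for Slc17a6, with 3 CG in the same bin. The bins next to those shown differed more. Both neighbours of the Foxf2 bin held a CTCF peak in 11 of 11 lists, and neither neighbour of the Gpr85 bin held one in any list.

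About 1 interaction in 6 had no CTCF, and the share varied most among forebrain stages. It was 21.3% in FB E12.5 (10918 of 51264), 17.5% in MB (9975 of 56978), 18.1% in HB (11187 of 61929) and 18.4% in NT (13167 of 71456). In the non-neural tissues it was 18.2% in LM (10213 of 56013), 17.4% in CF (10634 of 61119) and 17.1% in LV (3748 of 21945). In later forebrain, E13.5 had 18.8% (10762 of 57174), E14.5 had 12.6% (7452 of 59278), E15.5 had 12.1% (8145 of 67278) and E16.5 had 17.7% (11709 of 66050). FB E14.5 and FB E15.5 were the 2 lowest, and their CTCF lists were the 2 largest, with 57898 and 54506 autosomal peaks against 42849 to 49700 in the other 9 tissue-stages. The part that list size has in the share was not tested. At P0 the share was 11.8% with 61474 peaks.

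**Figure D1:**
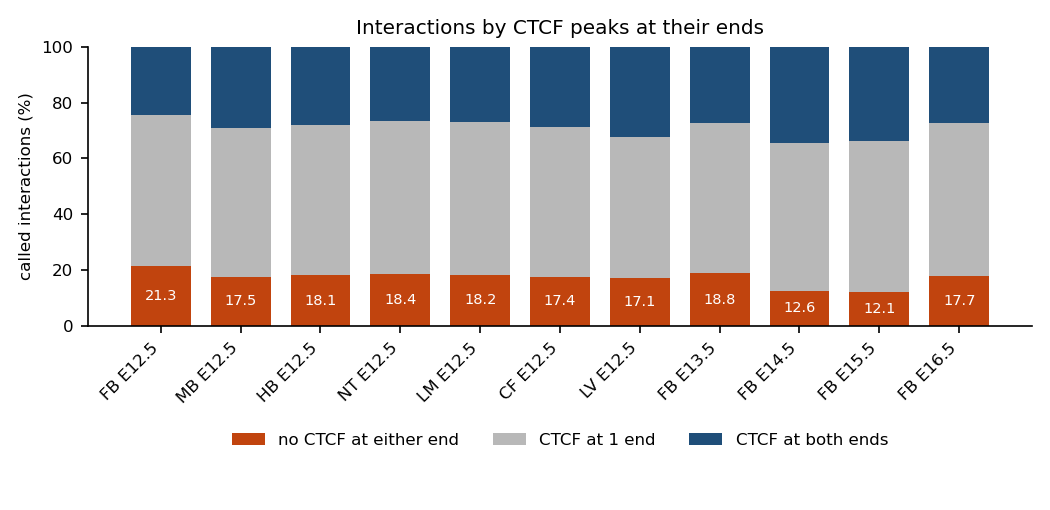
Stacked bars give the percent of called interactions with no CTCF at either end, CTCF at 1 end and CTCF at both ends in each of 11 tissue-stages (x axis). The no-CTCF share, printed in each bar, was between 12.1% and 21.3%, with FB E14.5 and FB E15.5 lowest.

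Over the 11 tissue-stages the mean share was 17.2% (SD 2.66) for no CTCF, 53.8% (SD 1.24) for CTCF at 1 end and 29.0% (SD 3.21) for CTCF at both ends. Bins without a CTCF peak were 81.3% to 85.7% of all 239715 autosomal bins, but 53.1% to 64.2% of bins with an interaction and 36.8% to 50.4% of interacting bins with a protein-coding TSS. In single replicate libraries the share was lower, at 12.4% (SD 2.29, n = 22).

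Many members lay close to the boundary of the rule. A CTCF peak lay within 1 kb outside an end bin for 24.1% of no-CTCF interactions and within 10 kb for 83.1%, and the median distance to the nearest peak outside was 2.89 kb (means over 11 tissue-stages). Just on the other side, 57.4% of interactions with CTCF at 1 end rested on a single peak. In the study's second CTCF list of the same tissue-stage 93.7% of the no-CTCF interactions again had no CTCF. Over the lists of all the other tissue-stages 34.5% had none, and 17.3% had CTCF in 6 or more of the other lists. A total of 20704 distinct pairs had no peak in any of 12 lists, P0 included.

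No-CTCF interactions spanned slightly longer distances than interactions with CTCF at both ends. Their median distance averaged 283 ± 39.5 kb, against 255 ± 30.1 kb with CTCF at both ends (SD, n = 11). It was longest with CTCF at 1 end, at 298 ± 41.2 kb, so distance did not follow the number of ends with CTCF. The no-CTCF median was 20 to 40 kb longer in 10 tissue-stages and equal in LV, at 170 kb. The mean difference was 28.2 kb (exact 2-sided sign-flip permutation test over tissue-stages, p = 0.00195, which is also its Benjamini-Hochberg value over 8 tests). The difference was 31.0 kb without LV and 17.3 or 16.4 kb with a single replicate library per tissue-stage, and it was 2.73 kb, no longer past the threshold, when a peak in a neighbouring bin also counted as CTCF (p = 0.594 in the same exact test). In single libraries it averaged 16.8 kb and was above 0 in 18 and 0 in 4 of 22.

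Their signal over expectation was lower by a small amount. The median log2 of count over expected averaged 1.75 ± 0.06 for no-CTCF interactions and 1.82 ± 0.07 for those with CTCF at both ends (SD, n = 11), with a difference of -0.07 that was below 0 in 11 of 11 tissue-stages (exact sign-flip permutation test, p = 0.000977, the smallest that 11 tissue-stages allow, adjusted p = 0.00112). With a single replicate library per tissue-stage the difference was -0.13 or -0.12. The median read count was 19.8 against 25.6, and the median expected count was 5.79 against 7.01. Within classes of like distance the log2 ratio was lower for no-CTCF interactions in each class, from 1.22 against 1.31 at 20 to 100 kb to 2.26 against 2.46 at 810 to 1000 kb. The order depended on what lay at the ends, since the ratio was 1.82 against 2.01 where neither bin held a coding TSS and 1.59 against 1.58 where both did. When a bin counted as CTCF-bound through a peak in any of the 12 tissue-stages, the difference turned to 0.021 (exact sign-flip test, p = 0.00684).

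**Figure D2:**
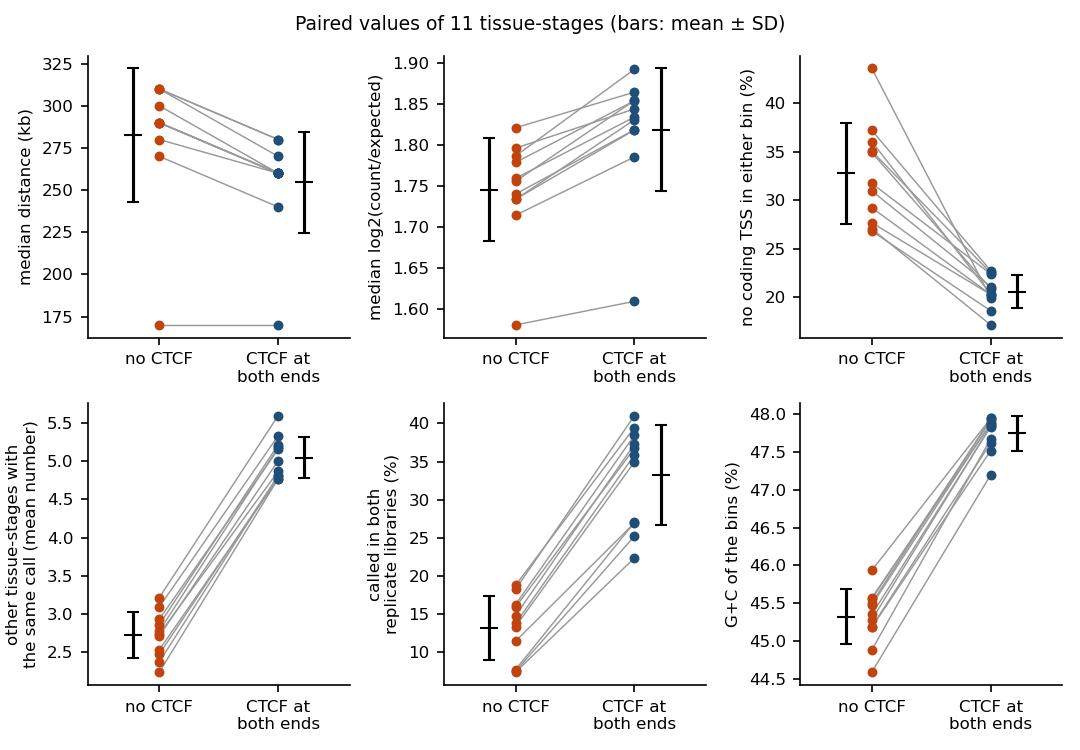
Paired points join the no-CTCF value (left, orange) to the CTCF-at-both-ends value (right, blue) of each of 11 tissue-stages for 6 measures, with black bars for the mean ± SD. The log2 ratio, recurrence, replicate overlap and G+C were lower, and the share without a coding TSS higher, for no-CTCF interactions in 11 of 11, and the distance was longer in 10 of 11.

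No-CTCF interactions joined fewer promoters. Both bins held a protein-coding TSS in 13.0% ± 1.85 of them, against 21.9% ± 1.22 of interactions with CTCF at both ends. Neither bin held one in 32.7% ± 5.18, against 20.6% ± 1.69, and the difference of 12.2 percentage points was largest in FB E15.5 at 23.6. The 2 bins together held 0.905 ± 0.086 coding genes, against 1.19 ± 0.04. Their G+C content was 45.3% ± 0.36, against 47.7% ± 0.23, and they held 14.1 CG dinucleotides per kb, against 17.1. Each of the 4 tested differences had the same sign in 11 of 11 tissue-stages (exact sign-flip permutation test, p = 0.000977, adjusted p = 0.00112) and in 22 of 22 single libraries. These p-values measure the spread between tissue-stages, which share many of the same bin pairs, and therefore overstate how independent the 11 values are. CTCF peaks were frequent at promoters: 36.8% to 50.4% of interacting TSS bins had none, against 53.1% to 64.2% of all interacting bins. Taking pairs without CTCF thus lowers their TSS and gene content, so the TSS and gene tests cannot show a property apart from where CTCF lies.

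The most marked difference was in how often the same pair was seen again. Within a tissue-stage, 13.2% ± 4.20 of no-CTCF interactions were called in both replicate libraries, against 33.2% ± 6.54 of those with CTCF at both ends. Across tissue-stages, a no-CTCF pair was called in 2.72 ± 0.30 of the other 10, against 5.05 ± 0.27. Both differences, -20 percentage points and -2.33 tissue-stages, had the same sign in 11 of 11 (exact sign-flip permutation test, p = 0.000977, adjusted p = 0.00112). Pairs called in 1 tissue-stage only made up 30.6% of no-CTCF interactions, against 12.1%, and pairs called in all 11 made up 1.74%, against 10.8%. Between any pair of tissue-stages the shared percent was lower for no-CTCF interactions in 110 of 110 ordered comparisons, by 14.1 to 29.6 percentage points. Counted as distinct pairs, 32212 of 61182 no-CTCF pairs (52.6%) and 21187 of 64280 pairs with CTCF at both ends (33%) were called in a single tissue-stage. The lower read counts of no-CTCF interactions moved with the lower overlap, and the part of read depth was not tested. Among interactions of like count over expected the differences were -18.0 percentage points and -2.22 tissue-stages, with the same p in the same test.

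**Figure D3:**
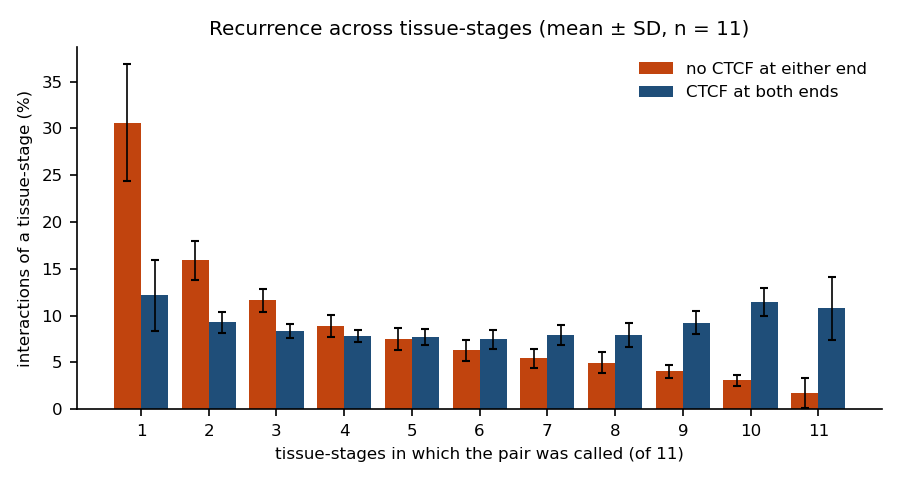
Bars give the percent of the interactions of a tissue-stage (y axis, mean ± SD over 11) whose bin pair was called in 1 to 11 tissue-stages (x axis). No-CTCF interactions (orange) were most frequent at 1 tissue-stage, at 30.6% against 12.1%, and least frequent at 11, at 1.74% against 10.8%.

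The class of a pair also varied between tissue-stages. Where a no-CTCF pair was called in another tissue-stage, it had no CTCF there too in 70.8% (SD 8.19) of cases, while a pair with CTCF at both ends kept that class in 86.0% (SD 4.73). Both shares follow from the CTCF lists and were not tested. Repeated DNA at the ends did not set the classes apart by much: 51.8% of no-CTCF pairs shared at least 1 word of 32 bases between their bins, against 55.4% of pairs with CTCF at both ends, and 0.611% against 0.867% shared 100 or more.

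Among the strongest constant no-CTCF pairs was one that joined the bin with the TSS of Foxf2, a forkhead gene of mesenchyme, at chr13:31620001-31630000 to a bin 550 kb away at chr13:31070001-31080000 that holds no coding TSS. Its count over expected was 3.28 in FB E12.5, 8.73 in MB, 9.81 in HB, 9.04 in NT, 5.46 in LM, 9.54 in CF and 5.63 in LV. In later forebrain, E13.5 had a ratio of 9.63, E14.5 of 4.74, E15.5 of 10.9 and E16.5 of 12.0. FB E12.5 was thus lowest and FB E16.5 highest, on 12 to 66 reads, with a mean ratio of 8.06, and the pair was called again at P0.

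Pairs at other genes followed. The Cdkn1c bin, which holds an imprinted cell cycle inhibitor, was joined to a bin 290 kb away with a mean ratio of 5.95, from 3.51 in FB E12.5 to 8.70 in HB. The bin of Fam120b was joined over 320 kb with a mean of 5.59, from 3.23 in CF to 7.37 in FB E12.5. Aldh1a3, which makes retinoic acid, was joined over 230 kb to Asb7 with a mean of 5.24 and a range of 3.31 to 6.98. A pair of bins on chromosome 14 with no coding TSS, 590 kb apart, averaged 5.63, and its best motif-like stretches were identical at 37 of 39 bases. There were 9 weaker constant pairs with mean ratios of 2.73 to 4.33, and among them was one that joined the Skap2 bin to Hoxa2, which was highest in NT, at 4.40, and lowest in LV, at 2.44.

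Genes were next ranked by the no-CTCF interactions of their TSS bins. Of 20807 protein-coding genes, 15621 had an interaction, 9217 had a no-CTCF one and 151 had one in all 11 tissue-stages. Among 7611 genes with at least 20 interactions summed over the tissue-stages, the median no-CTCF share was 7.14% (quartiles 0% and 26.7%), 2655 genes had none, and 14 (0.184%) had at least 80%. A gene with a CTCF peak at its only TSS bin cannot have a no-CTCF interaction, so these shares describe where CTCF lay as much as where interactions lay.

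The 12 genes with the most no-CTCF interactions are named next. Lhx2 (chr2:38339281-38369733, plus strand), a LIM homeobox gene required for cortex and eye, ranked first at 523 of 857 (61.0%), with 81 in FB E12.5, 83 in FB E13.5 and 11 in LV. Six3 (chr17:85613608-85629302, plus strand), a homeobox gene of the anterior forebrain and eye, had 442 of 785 (56.3%), from 4 in LV to 78 in FB E13.5 and FB E16.5. Dlx6 (chr6:6863334-6868568, plus strand), a homeobox gene of forebrain interneurons and the jaw, had 344 of 383 (89.8%). CTCF at both ends was not possible, since the only TSS bin of Dlx6 had no CTCF peak in any of the 11 lists. The no-CTCF numbers of Dlx6 ran from 2 in LV to 53 in CF with a median of 33.

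Sox2 (chr3:34650405-34652461, plus strand), which maintains neural progenitors, had 304 of 443 (68.6%), with 53 in FB E12.5, 3 in LM, none in LV and none in FB E15.5, where a peak lay in its TSS bin. In each of the 11 lists a CTCF peak lay in or next to that bin. Meis1, a homeobox cofactor, had 280 of 360 (77.8%), with 62 in NT and 58 in HB, but none in MB, where its TSS bin held a peak of 4.19-fold enrichment. Nfib, a glial and neuronal transcription factor, had 339 of 487 (69.6%), with 51 in LM and none in LV. Also among the 12 highest were Zfhx3 (394), Id4 (352), Nr2f2 (308), Meis2 (283), Zfp608 (269) and Myt1l (261). Like Sox2, Six3, Zfhx3, Id4, Nr2f2, Meis2, Meis1 and Myt1l had a peak in or next to a TSS bin in 11 of 11 lists. Dlx6 and Zfp608 had one in 8 lists, Nfib in 4 and Lhx2 in 3. Id4, an inhibitor of bHLH factors, shows how the class can switch with a single bin: it had 58 no-CTCF interactions of 70 in FB E12.5 and 0 of 65 in MB, 0 of 50 in HB and 0 of 73 in FB E15.5. In these 3 its TSS bin held a CTCF peak, of 4.51-fold, 3.86-fold and 2.70-fold enrichment, all below the median of their lists.

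Genes with a share of at least 80% were led in number by Dlx6, Zfhx4 (174 of 217) and Trps1 (111 of 132), the last 2 being zinc-finger genes. Trps1 had 61 in LM and 23 in CF, against 0 to 7 elsewhere. The highest share was that of the peroxisomal gene Pex2, at 96.7%, on 29 of 30 interactions. The others named by the rule were Csrnp3, Ndnf, Usp3, Ccdc112, Fkbp9, Smurf2, Btn1a1 and Rnaseh1, with 20 to 56 no-CTCF interactions each. None of the 12 had an interaction with CTCF at both ends. At Dlx6, Zfhx4, Trps1, Ndnf, Pex2, Ccdc112, Fkbp9 and Rnaseh1 this was fixed by the rule, as no list had a CTCF peak at their TSS bins.

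Gene groups differed in their shares, which are given as a description. Patterning transcription factors had the highest median of the 12 lists, 33.3% over 61 genes, against 7.14% over all genes. Erythroid and blood genes had 25.3% (10 genes), histone genes 17.2% (51), housekeeping genes 12.9% (14), neural differentiation factors 12.5% (36) and limb and face mesenchyme genes 11.4% (41). Hox genes had 5.67% (39), with a median of 40.4% for CTCF at both ends, and 17 of them had no no-CTCF interaction. Hoxa13 was high among them at 50.8%. Lower medians were found for hepatocyte genes, 3.33% (8), genes of neuronal adhesion, guidance and synapses, 3.30% (37), and cell cycle genes, 0.862% (14), and the median was 0% for loop extrusion genes (7) and ribosomal protein genes (55). A list's median gives each gene with at least 20 interactions the same weight. Over all interactions of a list the no-CTCF share was 29.7% for patterning factors, against 14.7% over all genes, but it was 7.11% for blood genes, 13.1% for the adhesion, guidance and synapse genes and 12.9% for ribosomal protein genes, so the order of these lists depends on the measure.

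To ask which genes differed between neural and other tissues, the no-CTCF interactions of each gene were counted in the 14 single libraries at E12.5, scaled to the total of the library, and compared as log2(number + 1) between FB, MB, HB and NT (8 libraries) and LM, CF and LV (6 libraries). Of 553 genes with a mean of at least 1, 167 (30.2%) were higher and 115 (20.8%) lower in neural tissues, 51% in all (limma with Benjamini-Hochberg adjusted p below 0.05). The error is that between 2 libraries of a tissue, and the median difference over the genes tested was 0.15. Where a group is at 0, the difference depends on the added 1 and is not a fold change.

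The largest difference was at Slc17a6. This vesicular transporter that loads glutamate had 12 and 10 in FB, 19 and 19 in MB, 22 and 16 in HB and 13 and 19 in NT, against 0 in each of the 6 other libraries (difference 3.82 ± 0.14 SE, limma adjusted p = 4.5e-08). Gad2, a GABA-synthesizing enzyme, had 4 to 19 in neural libraries, against 0 in the others (3.27). The LIM homeobox gene Lhx5 had 8 to 10, against 0 (3.12). The groups did not overlap for these 3 genes, which were picked for their large differences, so this is a description only. None had a CTCF peak at its TSS bin in the 4 neural lists. The only TSS bin of Lhx5 held a peak in CF, so its 0 in CF was fixed by the rule.

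Sox2 was high in all neural libraries and present in 1 other tissue. It had 10 to 28, against 7 and 10 in CF and 0 in LM and LV (3.01 ± 0.14, limma adjusted p = 1.1e-07). Six3 had 6 to 38, against 9 and 11 in CF and 0 or 1 in LM and LV (2.59). Lhx2 had 57 and 60 in FB and 9 and 9 in NT, against 11 and 4 in LV and 0 to 4 in LM and CF (2.34 ± 0.29), so its groups overlapped. The others named by the rule were the neurite factor Nrn1 (2.72), the mitochondrial synthetase Fars2 (2.56), the neuronal factor Myt1l (2.50) and the Wnt effector Tcf7l2 (2.45), the last with a difference of 0.05 when all its interactions were counted.

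The largest difference in the lower direction was at Igf2, a fetal growth factor. It had 0 in all 8 neural libraries, against 4 and 6 in LM, 4 and 8 in CF and 6 and 3 in LV (-2.85 ± 0.18, limma adjusted p = 8.3e-07). Hand2, a bHLH factor of limb and pharyngeal arch, had 0 to 4, against 16 and 22 in LM, 6 and 8 in CF and 5 and 7 in LV (-2.69). The mRNA decay factor Zfp36l1 had 0 in FB, MB and HB and 15 and 19 in NT, against 38 and 47 in LM, 27 and 28 in LV and 0 in CF (-2.72). FB, MB, HB and CF, all at 0, were the tissues with a CTCF peak at its TSS bin, and with all interactions counted the difference was -1.0. Fli1, a factor of blood and endothelium, had 0 or 1, against 1 to 7 (-2.33). The others were Gm49394, Picalm, Nemf, Fgfr1, Nudt4 and 2010111I01Rik, at -2.63 to -2.02. With all interactions counted, Fgfr1 was at -0.35 and not past the threshold (limma adjusted p = 0.145), Nudt4 at -0.70 and Nemf at -1.07. Fgfr1 and Nemf had a CTCF peak at a TSS bin in each of the 4 neural lists, and Fgfr1 also in the 3 others.

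**Figure D4:**
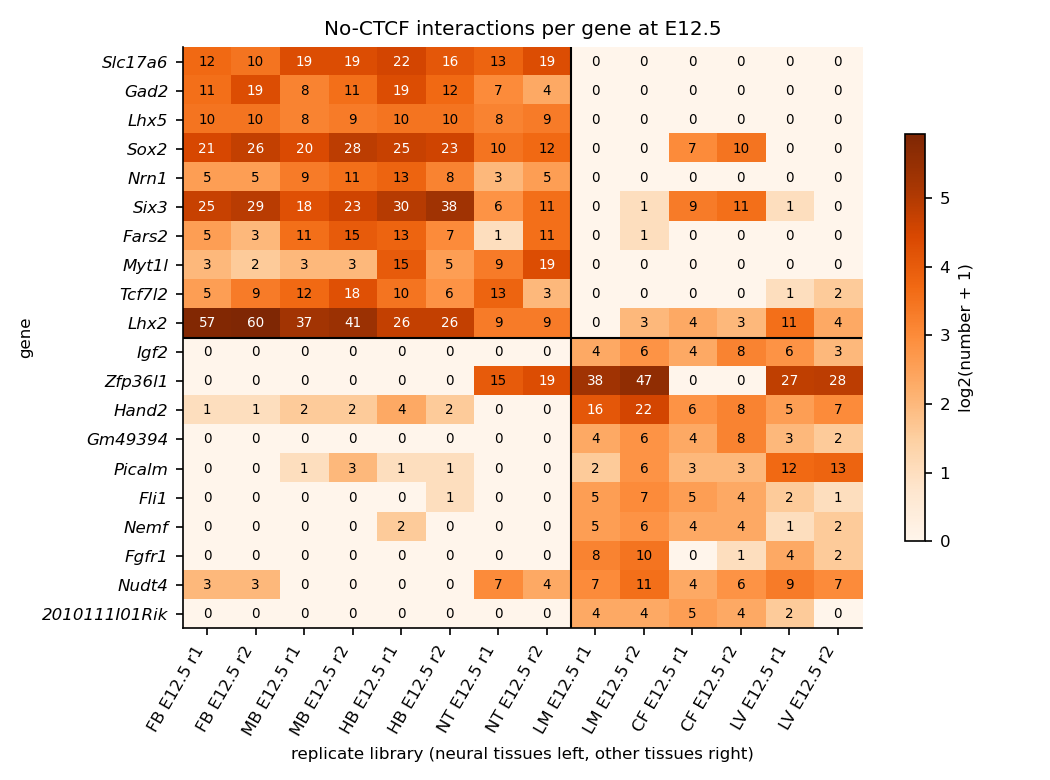
Each row is a gene and each column a replicate library at E12.5, with neural tissues left and other tissues right, and each cell gives the number of no-CTCF interactions with color for log2(number + 1). Slc17a6, Gad2 and Lhx5 were at 0 in each of the 6 other libraries, and Igf2 was at 0 in each of the 8 neural ones. The 0 of Lhx5 in CF follows from a CTCF peak at its only TSS bin.

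The counts of each list are read against the 30.2% higher and 20.8% lower over all genes tested. Of 32 tested patterning factors 22 were higher and 1, Lhx1, was lower, with a list median of 1.16 against 0.15 over all genes. The only TSS bin of Lhx1 had a CTCF peak in each of the 4 neural lists, so its neural numbers were fixed at 0 by the rule. With every interaction counted, Lhx1 turned to 1.87 and the higher factor Six2 to -0.51. Of 12 neural differentiation factors 8 were higher and none lower, among them Nr2f1 (2.20) and Nfia (1.85). Of 12 Hox genes 5 were higher and none lower, led by Hoxb2 (1.94) with 0 to 11, against 0 or 1. Of 14 limb and face genes 4 were higher and 4 lower, close to the shares over all genes. The higher ones included Zfhx3 (1.73) and Gli3 (1.18, but -0.33 with every interaction counted). The lower ones included Meis2 (-1.89, but 0.80 with every interaction counted).

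The remaining lists held few tested genes. Of 13 histone genes 3 were lower, close to the 20.8% over all genes, and these 3 had identical numbers (Hist1h2ab, Hist1h3b and Hist1h4b). Of 3 blood genes Ank1 was lower, with 4 and 5 in LV and 0 elsewhere, and of 4 ribosomal genes Rps24 was higher (1.22). Of 3 neuronal adhesion genes Slit3 was higher (1.53, but -0.31 with every interaction counted) and Ncam1 lower (-0.87, but 1.74). None of 3 housekeeping genes and 1 cell cycle gene was called, and no hepatocyte or loop extrusion gene could be tested.

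A peak at the TSS bin in one group of tissues removes interactions from the class. Of the 167 higher genes, 34 had a CTCF peak at a TSS bin more often in neural tissues and 44 more often in the others. Of the 115 lower genes, 46 had one more often in neural tissues and 8 more often in the others, against 51 and 36 of the 271 genes not called. Counting all interactions of the same genes (an alternative added after seeing the data), 133 of the 167 were again higher and 69 of the 115 again lower. With CTCF from any tissue-stage masked, 32 genes were higher and 19 lower of 99 tested. Markers of other cells moved little in this class: the 3 blood markers had 0 or 1 no-CTCF interactions in each of the 7 tissues, with 6 to 11 interactions of any class in neural tissues and 12 to 19 in the others, and the 3 vessel markers had 0 to 2. Their part in the differences was not tested.

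The second gene comparison asked which genes differed between late forebrain (E15.5 and E16.5, 4 libraries) and early forebrain (E12.5 and E13.5, 4 libraries), with E14.5 in the fit. Of 769 genes tested, 69 (8.97%) were higher and 214 (27.8%) lower in late forebrain, 36.8% in all (limma, adjusted p below 0.05), and the median difference was -0.37. This split differed between settings. With the second list 141 were higher and 125 lower of 943, with CTCF from any tissue-stage masked 23 were higher and 5 lower of 180, without scaling 114 and 135, and with all interactions of the same genes 98 and 80. The higher genes are described first.

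The largest difference among the higher genes was at Tenm2, a teneurin of synaptic adhesion. It had 6 and 11 at E15.5 and 10 and 19 at E16.5, against 0 and 0 at E12.5 and 1 and 2 at E13.5 (2.72 ± 0.33 SE, limma adjusted p = 0.000497). Gpr85, an orphan receptor of brain, had 6, 3, 5 and 6 in late forebrain, against 0 in all 4 early libraries (2.42 ± 0.38, limma adjusted p = 0.0018). Late and early libraries did not overlap for either gene, and both genes were picked for their large differences, so this is a description only.

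Ctnna1, an adherens junction protein, had 3 to 9 in late libraries, against 0 (2.55), with identical numbers for the synaptic gene Lrrtm2, whose TSS lies in the same bins. Mpped1 had 8 to 17, against 0 to 5 (2.40), the potassium channel Kcnn2 5 to 12, against 0 to 2 (2.20), the adhesion gene Ntm 5 to 9, against 0 to 4 (2.16), and the Rac exchange factor Tiam2 4 to 7, against 0 or 1 (2.11). The glutamate receptor Grm4 had 4 to 7, against 0 or 1 (2.33), but -0.23 with every interaction counted. Foxo3 had 14 and 22 at E16.5 and 0 at E15.5, against 0 in early libraries (2.01), but -0.19 with every interaction counted. Its stages at 0, E12.5, E13.5 and E15.5, were those with a CTCF peak at a TSS bin. At E14.5, without such a peak, it had 13 and 16. Each of the genes named above except Foxo3, which could not be tested there, passed the test also with CTCF of any tissue-stage masked.

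Each of the 9 lower genes named here had a CTCF peak at a TSS bin in both late lists, and 7 of them had none in the early lists. Sall1, a zinc-finger gene, had 0 in all 4 late libraries, against 22 and 34 at E12.5 and 23 and 30 at E13.5 (-5.27 ± 0.23, limma adjusted p = 1.1e-05). The only TSS bin of Sall1 had a strongest peak of 3.30-fold enrichment at E15.5 and 3.04-fold at E16.5, and no peak in the early lists. The list medians at these late stages were 6.59 and 8.41. A peak in that bin excludes no-CTCF interactions, so the rule fixed the late numbers at 0. The p-value therefore does not test a change in contact. The second list had no peak there at these late or early stages. With every interaction counted the Sall1 difference was -1.01.

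Zfp608 (-5.00) and Enox1 (-4.46) likewise had 0 or 1 in late libraries, against 8 to 35 in early ones, and a gained peak at the TSS. With every interaction counted they were at -0.37 and 0.45, neither past the threshold. Maml3, a Notch coactivator, had 0, against 14 to 31 (-5.03, but -0.35, not past the threshold, with every interaction counted). Dll1, a Notch ligand, had 0, against 16 and 12 at E12.5 and 2 and 3 at E13.5 (-3.29, and -1.23 with every interaction counted). The others were Arhgap21, Ebf2, Tle4 and Cdon, at -3.50 to -3.31. Of these 4, only Ebf2 (-1.58) was also past the threshold with every interaction counted. Ebf2 and Tle4 have 1 TSS bin each, with a peak in both late lists, so their late 0 was fixed by the rule.

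**Figure D5:**
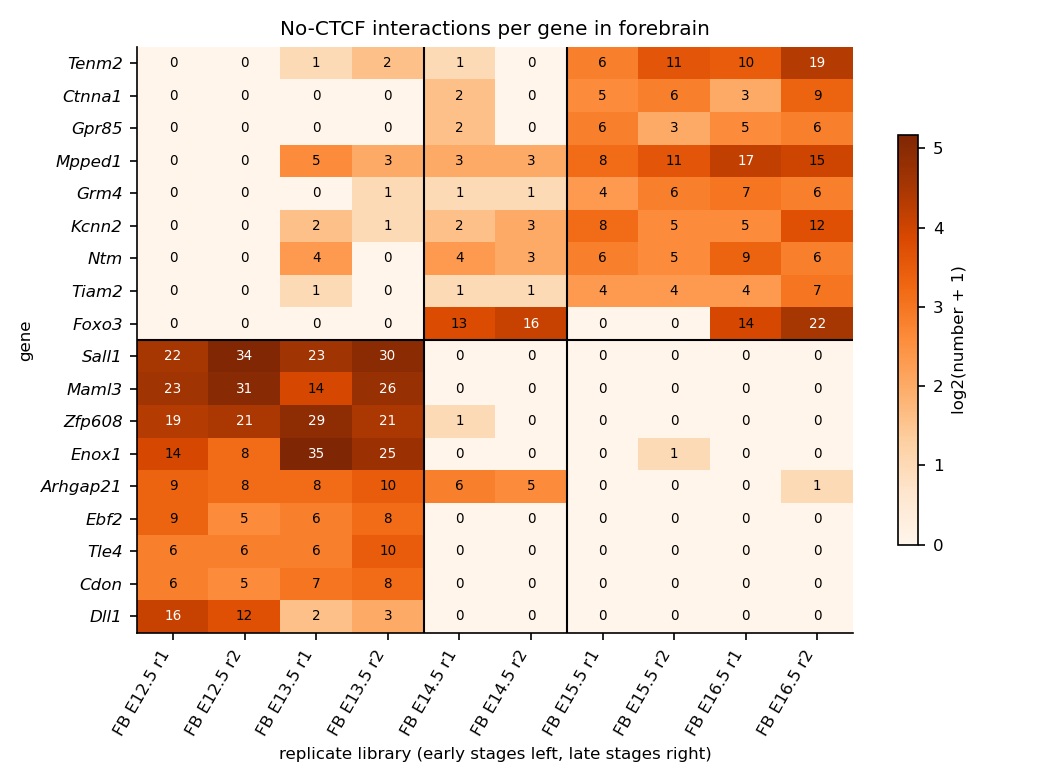
Each row is a gene and each column a forebrain replicate library ordered by stage, and each cell gives the number of no-CTCF interactions with color for log2(number + 1). The 9 upper genes had 0 in both libraries at E12.5 and 3 to 22 at E16.5, and the 9 lower genes were at 0 or 1 in each library at E15.5 and E16.5.

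Of the 214 lower genes, 123 had a CTCF peak at a TSS bin more often in the late lists and 2 more often in the early ones. Of the 69 higher genes 10 and 8 did, and of the 486 genes not called 119 and 21. Counting all interactions of the same genes, 58 of the 214 were again lower and 50 of the 69 again higher. Sox2, at 0 in both E15.5 libraries and at 23 and 20 at E16.5, against 19 to 29 in early forebrain (-2.93), had a peak at its TSS bin at E15.5 only, of 3.38-fold.

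These lists are read against 8.97% higher and 27.8% lower over all genes tested. None of 32 patterning factors was higher and 18 were lower in late forebrain, with a list median of -0.94 against -0.37 over all genes. Of these, Lhx2 had 35, 45, 59 and 65, against 57, 60, 60 and 68 (-0.92). The Lhx2 difference was -0.46 when scaled to no-CTCF interactions, and -0.46 and not past the threshold with CTCF of any tissue-stage masked (limma adjusted p = 0.101). The only TSS bins of Zic2 (-2.24) and Barhl2 (-2.60) held a peak at E15.5, so their 0 there was fixed by the rule. Gata2 (-2.27) had a peak at a TSS bin in both late lists and none in the early ones. With every interaction counted, Zic2 was at -0.67, Barhl2 at -0.97, Gata2 at -0.67 and Lhx2 at -0.61, each still past the threshold. Peaks at TSS bins were not counted for this list as a whole. Of 8 genes of neuronal adhesion, guidance and synapses 4 were higher (Dlg2, Ntm, Opcml and Tenm2) and 1 lower (Auts2, -0.96). Auts2 was not past the threshold when scaled to no-CTCF interactions (-0.56, limma adjusted p = 0.126) or with every interaction counted (-0.15, limma adjusted p = 0.565). Of 18 neural differentiation factors 6 were higher, among them Neurod6, Tbr1 and Myt1l, and 8 lower, among them Sox2 and Nr2f1. Of 12 Hox genes 7 were lower, of 13 histone genes 7 and of 11 limb and face genes 5. None was higher in these lists, which at 8.97% over all genes is near the background for lists of this size. Among the lower genes Hoxb7 and Hoxb8 had identical numbers. In the pooled calls so did Hist1h2bb and Hist1h3c, and also Hist1h2ad, Hist1h2ae, Hist1h2bf, Hist1h2bg and Hist1h3d. Such genes do not count as separate results. Meis1 (-0.47) turned to 0.13 without scaling, Zfhx3 (-0.84) to 0.012 with CTCF of any tissue-stage masked and Gli3 (-2.47) to 0.71 with the second CTCF list. Ccnd2 (-1.77), Ywhaz (-2.10) and Rpl34 (-2.44) were the lower members of the cell cycle, housekeeping and ribosomal lists. With every interaction counted Ywhaz (-0.29) and Rpl34 (-0.52) were not past the threshold, and Ccnd2 turned to 0.71 with CTCF of any tissue-stage masked.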

How the data were processed

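H3K4me3 PLAC-seq calls and CTCF ChIP-seq peaks of 11 mouse tissue-stages were used as deposited. The authors mapped reads to mm10 (GRCm38) with BWA and called interactions with MAPS in 10-kb bins on 19 autosomes at an FDR below 1% and a count over expected of at least 2, with an H3K4me3 peak at 1 or both ends. The deposited call lists give the read count, the authors' expected signal and their FDR, a p-value adjusted by them, for called pairs only. CTCF peaks were called by the authors with MACS2 at a p-value of 0.01 and kept where replicated, and the deposited fold enrichment, a ratio over input, was used for peak strength. How the second CTCF list of each tissue-stage was made is not given in the sources used here. The LV E12.5 and FB E14.5 CTCF libraries are titled technical replicates.

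Here a bin was CTCF-bound when it held a peak midpoint. TSSs were those of GENCODE M21 protein-coding genes. Differences over 11 tissue-stages were tested by exact 2-sided sign-flip permutation (scipy 1.17.1) with Benjamini-Hochberg adjustment over 8 tests. Genes were compared with limma 3.58.1 (R 4.3.3, trend) on log2 of the number of no-CTCF interactions per replicate library, scaled to the median total, plus 1, for genes with a mean of at least 1. Scripts were tested on simulated data. Named genes were the 10 largest changes a direction, the 12 with the most no-CTCF interactions, 12 with a share of at least 80%, up to 4 a list and those at the 6 strongest constant pairs, and results at 4 of the genes so chosen are not reported here. The members, lists and tests were chosen with earlier results of these data known. Alternatives were a second peak list, any-base, neighbouring-bin and any-tissue CTCF, the stronger part of the peaks, an FDR below 0.0001, other filters, scaling and pseudocount, left-out libraries and tissue-stages, and, added after seeing the data, all interactions of the same genes. The PLAC-seq libraries are biological replicates by their titles, and files list called pairs only, so the depth behind pairs that were not called is unknown.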

Additional observations from a re-analysis of the deposited data

How the results depend on the processing

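The 8 tested differences between no-CTCF interactions and those with CTCF at both ends kept their direction under each alternative run, except that the log2 ratio difference was 0.021 with peaks of any tissue-stage. The distance difference was 2.73 kb and no longer past the threshold when a neighbouring bin counted (p = 0.594, exact sign-flip test). Leaving out a replicate or a tissue-stage, the distance difference was 16.4 to 31.0 kb, the log2 ratio difference -0.13 to -0.07 and the recurrence difference -2.35 to -2.14. The difference in overlap between replicates, which needs both, was -20.6 to -19.8 percentage points with a tissue-stage left out. The no-CTCF share followed the definition of a bound bin: 2.97% with neighbouring bins, 5.77% with peaks of any tissue-stage and 34.3% with peaks below the median fold of the list left out, and 12.3% to 17.7% with a replicate or tissue-stage left out. The number of genes called in the neural comparison was 612 of 4657 without the filter and 51 with peaks of any tissue-stage, and 244 to 294 with a library left out. In late forebrain it was 556 of 3903 without the filter, 28 with peaks of any tissue-stage, 178 with all interactions counted and 229 to 279 with a library left out.

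Scaling moved the split of the neural calls, which was 252 higher and 61 lower without scaling (median 0.56 in place of 0.15), 139 and 140 when scaled to no-CTCF interactions and 206 and 90 with the second CTCF list. In late forebrain scaling to no-CTCF interactions gave 73 higher and 137 lower, and no scaling moved the median to 0.04 in place of -0.37. Single genes that turned were Six2 (-0.51), Lhx1 (1.87), Slit3 (-0.31), Ncam1 (1.74, and 0.19 with the second list), Meis2 (0.80, and 0.68 with the second list) and Gli3 (-0.33) in the neural comparison, with all interactions counted unless stated. In late forebrain they were Grm4 (-0.23), Foxo3 (-0.19) and Enox1 (0.45) with all interactions counted, Gli3 (0.71) with the second list, Meis1 (0.13) without scaling, and Zfhx3 (0.012) and Ccnd2 (0.71) with peaks of any tissue-stage. The cause was not tested, except that the last settings remove genes or change which bins count by construction.

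Replicate numbers did not pair the libraries, since deviations of same-numbered libraries correlated at -0.09 to 0.07 in the neural comparison and -0.08 to 0.09 in forebrain. With the replicate block the counts were 282 and 277, and no named gene changed its call. Calls per library and tissue-stage rest on a median of about 20 reads per interaction, so a pair missed in 1 call set may lie just under the threshold there.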
